A study of Mus musculus with 20 samples.

Results

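A set of 10 genes known to respond to glucocorticoids or to FoxO factors were described across the mouse kidney libraries of the series: Nr3c1, Fkbp5, Tsc22d3, Zbtb16, Klf9, Errfi1, Ddit4, Mt1, Mt2 and Foxo1. They were the rows of the count table whose identifiers map to these 10 symbols, out of 55471 genes in all, and all 10 had enough counts to be tested in every comparison. The genes were picked by name with earlier results of the series known, and no contrast was recorded for that choice, so that the tests below measure differences against the spread between mice and are not independent evidence about the list. One library was left out of group means and main fits, chosen by its measured hepatocyte transcripts as described below.

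Glucocorticoids bind the glucocorticoid receptor, encoded by Nr3c1, which is held in the cytoplasm by heat shock proteins and co-chaperones until the hormone arrives and then acts on target genes in the nucleus. Adrenal secretion of the hormone follows the time of day and stress, and several targets of the receptor rise and fall with it in most tissues, kidney included. FoxO factors are transcription factors kept out of the nucleus by insulin and growth factor signalling through Akt, and metallothioneins are small zinc-binding proteins induced by metals, glucocorticoids and inflammatory signals.

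Bulk RNA-seq had been made from whole kidneys of 20 female mice of 2 months in 2 experiments. In the Adriamycin experiment, first-generation TERT KO/KO mice lacking the telomerase protein subunit and their TERT WT/WT littermates, both backcrossed to BALB/c, received a single intravenous injection of 12 mg/kg Adriamycin (ADR, doxorubicin, an anthracycline toxic to podocytes) or of saline, and kidneys were taken 18 days later (3 TERT KO/KO ADR, 3 TERT KO/KO saline, 3 TERT WT/WT ADR and 4 TERT WT/WT saline mice). In the transgenic experiment, 3 i-TERTci mice carried both the actin-rtTA+ and the tetOp-TERTci+ transgene, which gave ubiquitous, doxycycline-dependent expression of a catalytically inactive TERT, and 4 control mice carried actin-rtTA+ alone. Both of these groups, on a mixed background, drank doxycycline for 15 days and were killed 8 days after its withdrawal. The kidneys were bulk tissue, in which fewer cells of a type and less RNA per cell cannot be told apart.

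The libraries held 39323498 to 48399322 counts. Tert itself had 51 to 210 counts in the 5 TERT KO/KO libraries used and 122 to 379 in the TERT WT/WT libraries, and gene totals do not show which part of the gene was read. It had 230 to 1086 counts in i-TERTci against 87 to 164 in actin-rtTA+. Albumin took 26.1% of the counts of TERT KO/KO ADR replicate 2, which had no Tert count, and at most 0.00829% in every other library, so that the comparisons below rest on 2 TERT KO/KO ADR mice. That library is given as plain CPM (counts scaled to 1 common library total), all others as CPM scaled by the trimmed mean of M-values (TMM).

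The promoters of 8 of the 10 genes were found in the RefSeq table (GRCm38.p6). The 250 bases before the start of the neighbouring genes Mt2 and Mt1 are shown, because Mt2 gave the largest fold of the 10 genes in TERT WT/WT kidneys. Matches to TGCNCNC, read on both strands, are printed in capitals. This pattern is looser than the core of the metal response element, TGCRCNC, where R is A or G. The table gives 250 bases before each start and a short stretch after it, and all motif counts are over the 250 bases before the start alone.
Mt2, chr8:94172368-94172617, plus strand: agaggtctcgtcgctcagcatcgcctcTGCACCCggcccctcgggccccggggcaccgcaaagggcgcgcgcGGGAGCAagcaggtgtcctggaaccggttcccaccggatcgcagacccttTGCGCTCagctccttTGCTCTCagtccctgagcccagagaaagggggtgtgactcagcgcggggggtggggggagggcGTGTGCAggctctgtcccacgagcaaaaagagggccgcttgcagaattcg
Mt1, chr8:94178839-94179088, plus strand: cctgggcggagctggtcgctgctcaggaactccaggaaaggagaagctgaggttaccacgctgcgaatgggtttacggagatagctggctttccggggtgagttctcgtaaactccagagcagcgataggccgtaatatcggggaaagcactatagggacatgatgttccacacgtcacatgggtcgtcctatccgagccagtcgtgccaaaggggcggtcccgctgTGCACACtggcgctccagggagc
Mt2 held 5 such matches, a number reached by 0.344% of the 32851 promoters of the table, and Mt1 held 1, as 44.4% of promoters did at least once. Of the other genes, Ddit4 held 2 matches, and Fkbp5, 1 start of Errfi1 and 1 start of Tsc22d3 held 1 each. GENCODE M21 also starts Mt1 transcripts 122 and 152 bases further downstream, and starts its Mt2 transcripts 46 and 242 bases downstream of the RefSeq start, so that the windows do not hold all of the sequence before those starts. The full glucocorticoid response element, AGAACA followed after any 3 bases by TGTTCT, was found in 0.00913% of promoters and in none of the 8 genes read, which did not include Nr3c1 and Zbtb16. Its left arm AGAACA, present in 16.1% of promoters, stood once before one of the 3 starts listed for Tsc22d3, and the FoxO motif GTAAACA, present in 3.17%, stood once before the start of Klf9. These are letter matches in a short window and say nothing of binding.

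After ADR, TERT WT/WT kidneys had higher Mt2, Zbtb16, Fkbp5, Mt1 and Ddit4 than after saline, by 2.07 to 6.43 times, and somewhat lower Nr3c1, Errfi1 and Foxo1. Thus 5 of the 10 genes rose and 3 fell (edgeR quasi-likelihood test, adjusted p under 0.05), where 15.2% of the 19023 genes tested were called higher and 12% were called lower. The 5 increases were called in every fit that left out one library, and the 3 decreases were not. The median log2 fold change of the 10 genes was 0.41, against 0.01 over all genes tested.

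Among the receptor and its regulators, Fkbp5 encodes a co-chaperone that lowers the receptor's affinity for hormone and is itself a receptor target. Its level was 17.8, 23.2, 29.1 and 25.0 CPM in the 4 TERT WT/WT saline mice and 36.3, 69.2 and 119.7 CPM after ADR. All 3 ADR mice lay above all saline mice, over a wide range (log2 fold change 1.66, SE 0.35, edgeR adjusted p = 0.00692). Nr3c1 was read at 79.6, 82.5, 104.6 and 107.6 CPM after saline and at 81.2, 57.5 and 62.9 CPM after ADR. One ADR mouse thus stood within the saline range, and the decrease (log2 fold change -0.48, SE 0.16, edgeR adjusted p = 0.0369) was not called without TERT WT/WT ADR replicate 2 (log2 fold change -0.37, adjusted p = 0.18) or without any of 4 other libraries of the experiment.

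The receptor targets did not move together. Zbtb16, a zinc finger transcription factor strongly induced by glucocorticoids, was read at 1.76, 1.54, 2.48 and 1.76 CPM in TERT WT/WT saline mice and at 3.42, 6.02 and 10.7 CPM after ADR. Its increase (log2 fold change 1.84, SE 0.33, edgeR adjusted p = 0.00319) placed every ADR mouse above every saline mouse. Tsc22d3, which encodes the leucine zipper protein GILZ, an anti-inflammatory effector of the hormone, was read at 28.6, 30.7, 41.3 and 32.5 CPM after saline and at 22.4, 16.5 and 46.0 CPM after ADR. Replicates 1 and 2 after ADR were below the saline range and replicate 3 above it, and no difference was called (log2 fold change -0.24, SE 0.29, edgeR adjusted p = 0.576). Without replicate 3 Tsc22d3 was called lower (log2 fold change -0.79, adjusted p = 0.0322).

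Ddit4 (REDD1), an inhibitor of mTORC1 induced by glucocorticoids, hypoxia and ATF4, was read at 8.74, 10.4, 10.8 and 9.08 CPM after saline and at 12.97, 18.9 and 28.6 CPM after ADR (log2 fold change 1.05, SE 0.21, edgeR adjusted p = 0.00531). Errfi1 (MIG6), a feedback inhibitor of the EGF receptor, was read at 235.6, 256.7, 344.5 and 305.4 CPM after saline and at 200.04, 159.9 and 236.8 CPM after ADR. These groups overlapped at 1 mouse, and the call on Errfi1 (log2 fold change -0.53, SE 0.18, edgeR adjusted p = 0.0483) was lost without any of 9 of the 12 libraries, for example without TERT WT/WT saline replicate 3 (log2 fold change -0.42, adjusted p = 0.135). Klf9, a Krüppel-like factor induced by glucocorticoids, lay between 171.0 and 209.5 CPM after saline and between 141.1 and 161.6 CPM after ADR, without overlap but also without a call (log2 fold change -0.31, SE 0.14, edgeR adjusted p = 0.119).

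Mt2 had the largest fold of the 10 genes and Mt1 a smaller one. Mt2 was read at 46.6, 26.5, 24.1 and 42.9 CPM in TERT WT/WT saline mice and at 69.2, 298.7 and 308.1 CPM after ADR (log2 fold change 2.69, SE 0.42, edgeR adjusted p = 0.002). Mt1 was read at 94.3, 71.2, 53.7 and 79.8 CPM after saline and at 107.0, 196.1 and 203.9 CPM after ADR (log2 fold change 1.17, SE 0.23, edgeR adjusted p = 0.00472). In both genes TERT WT/WT ADR replicate 1 stood apart from the other 2 ADR mice, close above the saline range. Mt1 and Mt2 are near copies of each other, and an opposite-strand gene overlaps Mt2, so that some reads may have been shared or counted for the wrong gene.

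Foxo1 encodes the FoxO factor of the set. It was read at 65.6, 65.9, 70.3 and 69.3 CPM after saline and at 61.4, 50.3 and 52.2 CPM after ADR, all below the saline mice. The difference was small (log2 fold change -0.32, SE 0.09, edgeR adjusted p = 0.0272) and lost its call without any of 5 libraries, among them TERT WT/WT ADR replicate 2 (log2 fold change -0.25, adjusted p = 0.154).

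**Figure D1:**
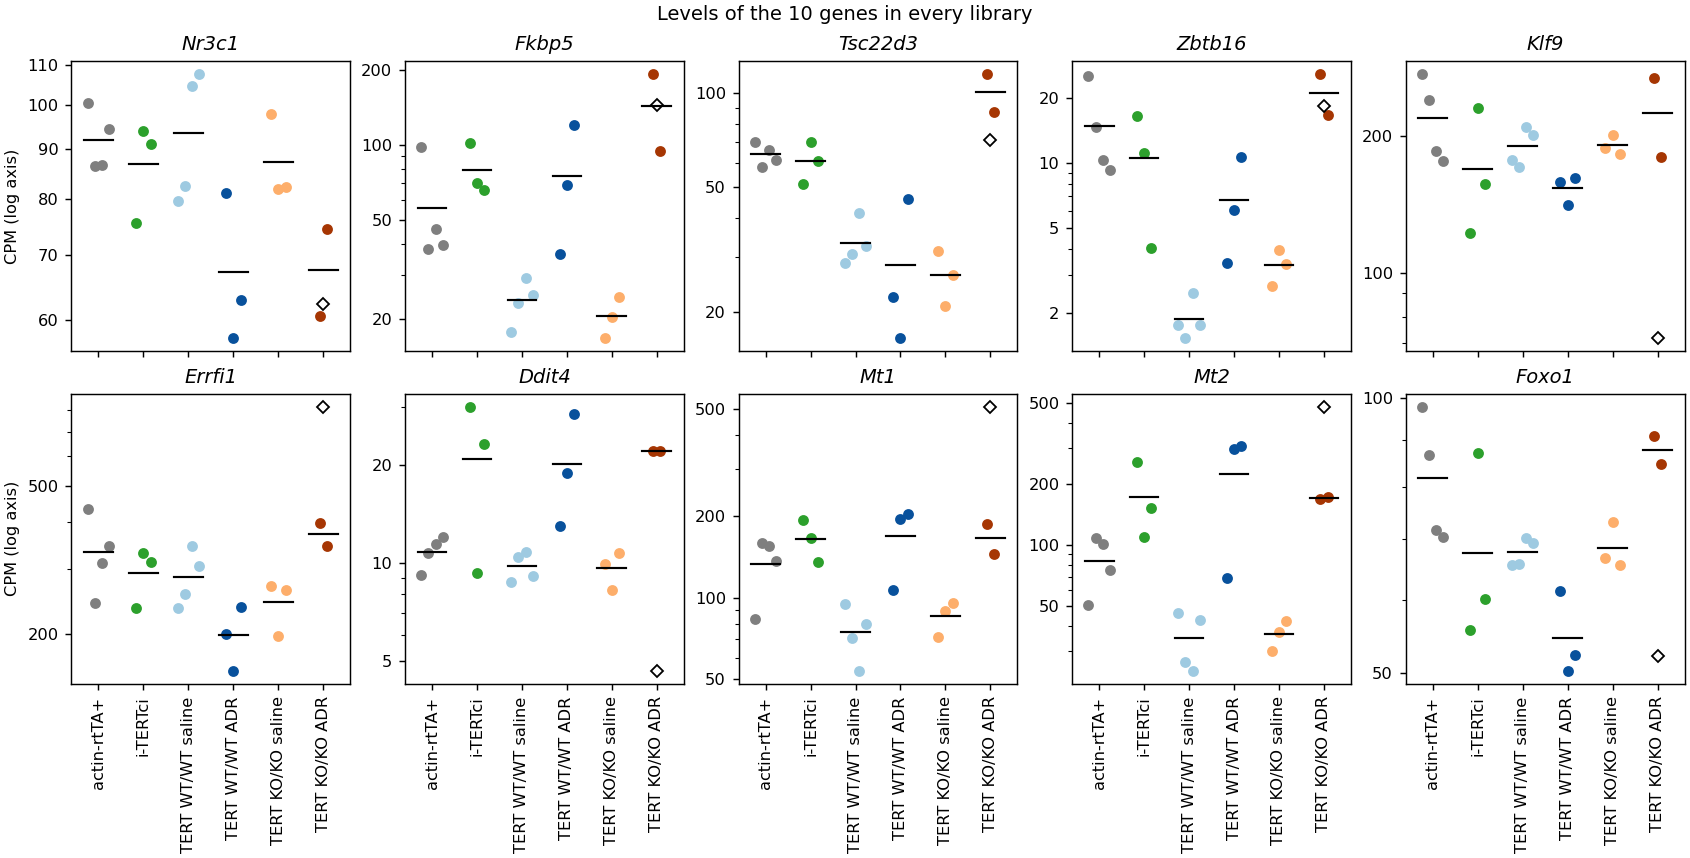
CPM of each of the 10 genes (log axis) in every library, by group; points are mice (TMM-scaled CPM), lines group means, and the open diamond is TERT KO/KO ADR replicate 2 (plain CPM), left out of the means. The group means of Fkbp5, Zbtb16 and Tsc22d3 are highest in TERT KO/KO ADR, at 143, 21.3 and 101 CPM, although single mice of other groups pass the lower of its 2 mice in Fkbp5 and Zbtb16, while Mt2 and Ddit4 are raised in ADR mice of both genotypes.

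The other members of these pathways were read from lists chosen with earlier results known. Where 15.2% of all genes were called higher and 12% lower, 8 of 25 further receptor targets tested in TERT WT/WT kidneys rose and 5 fell. Those with the smallest p were Anxa1, a phospholipase A2 inhibitor protein (log2 fold change 1.39), Angptl4, a lipoprotein lipase inhibitor (3.89), the kinase Map3k6 (2.28) and the NF-kappaB inhibitor Nfkbia (1.39), all called. The 5 that fell were Fam107a (-1.63), Klf15 (-1.28), Glul (-0.93), Pck1 (-0.87) and Lpin1 (-0.75). Of 14 genes of the receptor system, 4 fell and none rose: the co-chaperones Fkbp4 (-0.55) and Stip1 (-0.34), the coactivator Ncoa2 (-0.55) and the chaperone Hspa8 (-0.49).

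Of 25 other FoxO factors and targets, 4 rose and 2 fell, close to or under the shares over all genes (15.2% higher and 12% lower), with Pik3ip1, Gadd45a and Txnip higher by log2 fold changes of 0.84, 1.07 and 0.74 and the catalase gene Cat at -1.02. Of 14 mTORC1 brakes and ATF4 targets, 5 rose and 1 fell, with Atf3 at 3.54, Asns, encoding asparagine synthetase, at 1.55 and Vldlr at -0.67. Among 11 zinc transport and metal response genes tested beside Mt1 and Mt2, none rose and 2 fell, the importers Slc39a8 (-1.15) and Slc39a5 (-1.03). The metallothioneins therefore moved in another direction than the 2 transporters that were called.

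Injury and cell type markers also differed after ADR in TERT WT/WT mice. The summed level of 8 tubule injury genes was 4596 CPM in ADR replicate 1 and 22409 and 18997 CPM in replicates 2 and 3, against 1732 to 1858 CPM after saline, and replicate 1 also had the lowest Fkbp5, Zbtb16, Ddit4, Mt1 and Mt2 of the 3. Tsc22d3, Errfi1, Klf9, Nr3c1 and Foxo1 were lowest in replicate 2, which had the highest injury sum, and Fkbp5, Zbtb16, Ddit4, Mt1 and Mt2 were lower there than in replicate 3. All 8 injury genes and 8 of 9 macrophage markers rose, while 5 of 9 proximal tubule and 7 of 8 podocyte markers fell. The summed macrophage markers lay between 361 and 855 CPM after ADR and between 174 and 230 CPM after saline, and the proximal tubule markers between 3503 and 12061 CPM after ADR and between 14162 and 16423 CPM after saline. The part of injury and of cell composition in the changes of the 10 genes was not tested.

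In TERT KO/KO kidneys, ADR was accompanied by higher Fkbp5, Zbtb16, Mt2, Tsc22d3 and Ddit4, by 2.30 to 6.99 times. These 5 of the 10 genes were called higher, where 3.83% of the 19023 genes were, and none was called lower, where 1.43% were (edgeR; no gene of the 10 was lower at an unadjusted p under 0.05, and DESeq2 called 7 higher and 0 lower). The median log2 fold change of the 10 genes was 1.09, against 0.01 over all genes tested. Fkbp5 and Zbtb16 kept their calls in each of the fits that left out one library.

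Fkbp5 was read at 16.8, 20.4 and 24.6 CPM in the 3 TERT KO/KO saline mice and at 192.1 and 94.8 CPM in the 2 ADR mice used. Both ADR mice lay far above the saline mice (log2 fold change 2.80, SE 0.42, edgeR adjusted p = 0.00605). Zbtb16 was read at 2.67, 3.96 and 3.39 CPM after saline and at 25.9 and 16.7 CPM after ADR (log2 fold change 2.68, SE 0.38, edgeR adjusted p = 0.00483). Tsc22d3 was read at 31.3, 20.9 and 26.2 CPM after saline and at 115.0 and 87.0 CPM after ADR (log2 fold change 1.95, SE 0.34, edgeR adjusted p = 0.0111). Unlike Fkbp5 and Zbtb16, Tsc22d3 lost its call without TERT KO/KO saline replicate 2 (log2 fold change 1.81, adjusted p = 0.0562) or replicate 3 (1.95, adjusted p = 0.0541).

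Mt2 was read at 30.0, 37.3 and 42.3 CPM in TERT KO/KO saline mice and at 167.9 and 172.8 CPM after ADR (log2 fold change 2.23, SE 0.49, edgeR adjusted p = 0.0265). Ddit4 was read at 9.88, 8.23 and 10.7 CPM after saline and at 22.1 and 22.0 CPM after ADR (log2 fold change 1.2, SE 0.25, edgeR adjusted p = 0.0207). Both groups were well apart, but with 2 ADR mice the calls were not stable: the Mt2 call was lost without any of the 5 TERT KO/KO libraries (adjusted p between 0.0532 and 0.108), and that of Ddit4 without any of 4 of them (between 0.0617 and 0.0839). Mt1 was read at 71.5, 89.2 and 95.5 CPM after saline and at 187.8 and 144.9 CPM after ADR, again without overlap, and was not called (log2 fold change 0.97, SE 0.27, edgeR adjusted p = 0.0592).

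The remaining 4 genes were not called in TERT KO/KO kidneys. Foxo1 was read at 66.7, 73.2 and 65.7 CPM after saline and at 91.1 and 84.7 CPM after ADR (log2 fold change 0.37, SE 0.11, edgeR adjusted p = 0.0736). Errfi1 was read at 269.7, 198.2 and 263.4 CPM after saline and at 397.3 and 345.5 CPM after ADR (log2 fold change 0.61, SE 0.21, edgeR adjusted p = 0.105). Both ADR mice were above all saline mice in these 2 genes. Klf9 lay between 182.3 and 201.1 CPM after saline and at 268.4 and 179.7 CPM after ADR, and Nr3c1 lay between 81.9 and 98.0 CPM after saline and at 60.6 and 74.4 CPM after ADR (edgeR adjusted p = 0.4 and 0.245).

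**Figure D2:**
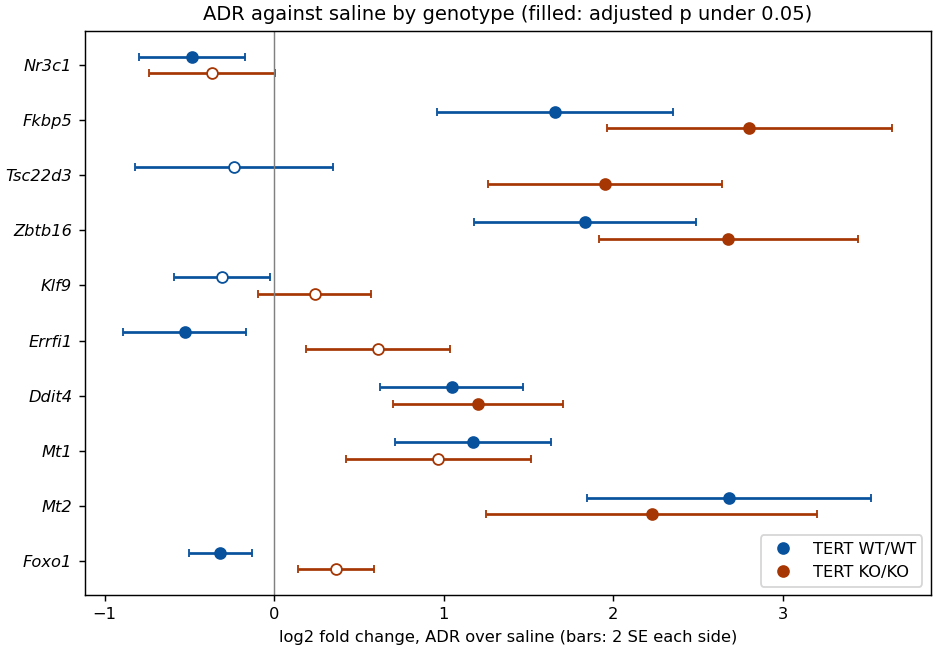
Log2 fold change of ADR over saline for the 10 genes, from 1 edgeR fit over 12 libraries, blue for TERT WT/WT kidneys, orange-brown for TERT KO/KO kidneys; bars are 2 SE on each side and filled points have an adjusted p under 0.05. The genotypes lie on the same side of 0 for Nr3c1, Fkbp5, Zbtb16, Ddit4, Mt1 and Mt2, and on opposite sides for Tsc22d3, Klf9, Errfi1 and Foxo1, with no difference between genotypes called by edgeR.

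Where 3.83% of all genes were called higher and 1.43% lower, 11 of the 25 further receptor targets rose and none fell in TERT KO/KO kidneys after ADR. The 4 with the smallest p were the transcription factors Cebpb (log2 fold change 2.21), Cebpd (2.14) and Hif3a (3.76) and the kinase Sgk1 (1.73), which controls the sodium channel of the distal nephron. In the receptor system 1 of 14 genes fell, Hsd11b2 (-0.64), which encodes the enzyme that inactivates corticosterone in the same segment. Of the FoxO list 2 of 25 rose, Foxo3 (0.95) and Klf2 (0.99), of the mTORC1 and ATF4 list 3 of 14 rose, Atf4 (0.86), Atf3 (4.20) and Ddit4l (0.84), and of the zinc list 2 of 11 rose, the importer Slc39a14 (0.94) and the exporter Slc30a1 (0.90). No gene of these 3 lists fell by edgeR.

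Genes of the circadian clock differed in the same mice. Over all genes, 3.83% were called higher and 1.43% lower in TERT KO/KO kidneys, and 15.2% and 12% in TERT WT/WT kidneys. Of 15 clock and clock output genes, 3 fell and 2 rose in TERT KO/KO kidneys after ADR, with Nr1d1, a repressor at the core of the clock, at a log2 fold change of -2.02 (edgeR adjusted p = 0.000947), Nfil3 at 1.95, Cry1 at 2.16 and Bhlhe41 at -0.73. Nr1d1 was read at 53.1 and 50.7 CPM in the 2 ADR mice and between 184.8 and 238.3 CPM in the saline mice of the same genotype, with no overlap. Per1 and Dbp, chosen after their values were seen, were at log2 fold changes of 1.63 and -1.45 (edgeR adjusted p = 0.026 and 0.0323). In TERT WT/WT kidneys 4 of the 15 clock genes fell and none rose, with Nr1d1 at -0.64 (edgeR adjusted p = 0.0116), Hlf at -1.13, Tef at -0.72 and Clock at -0.40. The hour at which kidneys were collected is not given in the sources used here, and the part of the clock in the levels of Fkbp5, Zbtb16 and Tsc22d3 was not tested.

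**Figure D3:**
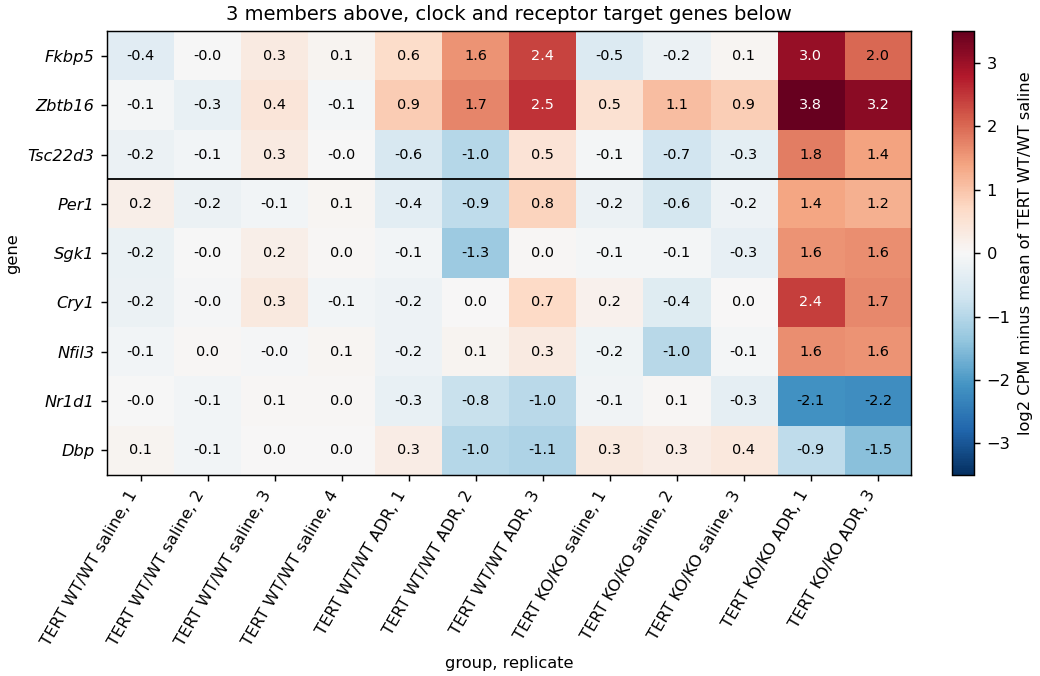
Log2 CPM minus the mean of the TERT WT/WT saline mice for 3 of the 10 genes (above the line) and 6 clock genes or other receptor targets (below it), in the 12 libraries used of the ADR experiment. In the 2 TERT KO/KO ADR mice all 3 genes, Per1, Sgk1, Cry1 and Nfil3 are above the TERT WT/WT saline mean and Nr1d1 and Dbp are below it. TERT WT/WT ADR replicate 3 has the same sign in every row, for example Fkbp5 at 2.35, Tsc22d3 at 0.48, Sgk1 at 0.04 and Nr1d1 at -0.95. The 6 lower genes were picked by small p or after being seen. Others of their lists moved little in TERT KO/KO kidneys, such as Clock (log2 fold change 0.05) and Klf15 (0.21).

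Injury was also present in the TERT KO/KO ADR mice. Summed tubule injury genes were at 7533 CPM in replicate 1 and 13078 CPM in replicate 3, against 1667 to 1963 CPM after saline, and 5 of the 8 genes rose. In the same comparison 3 of 9 macrophage and 4 of 7 fibroblast markers rose and 3 of 8 podocyte markers fell, while 0 of 9 proximal tubule markers were called by edgeR. Fkbp5, Zbtb16, Tsc22d3, Mt1, Klf9, Errfi1, Foxo1 and, barely, Ddit4 were higher in replicate 1, the mouse with the lower injury sum. Mt2 and Nr3c1 were lower there than in replicate 3. The part of injury and of cell composition in these values was not tested. Markers of the adrenal cortex, a possible neighbour in dissection and the source of the hormone, summed to at most 2.89 CPM in any library used, with Cyp11b1, which encodes the enzyme of the last step of corticosterone synthesis, at 0 counts in all 20 libraries. Only 3 of these 8 markers had enough counts to be tested, of which 1 rose after ADR in TERT WT/WT kidneys and none in TERT KO/KO kidneys.

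Set directly against each other after ADR, kidneys of the 2 genotypes differed by the edgeR call in Foxo1 alone, higher in TERT KO/KO, among the 10 genes (log2 fold change 0.69, SE 0.11, adjusted p = 0.0478). This was 1 of 10 genes called higher, where 0.0473% of all 19023 genes were. The call was lost without any of 11 of the 12 libraries, the exception being TERT WT/WT ADR replicate 1 (adjusted p up to 0.411, without TERT KO/KO ADR replicate 1, where the log2 fold change was 0.63). Tsc22d3 and Zbtb16 had larger folds without a call, at log2 fold changes of 1.84 (SE 0.34, edgeR adjusted p = 0.125) and 1.66 (SE 0.37, edgeR adjusted p = 0.195), with both TERT KO/KO mice above all 3 TERT WT/WT mice. Both were called without TERT WT/WT ADR replicate 1 (1.69 and 1.34) and without replicate 3 (2.39 and 2.18). Errfi1 and Klf9 did not overlap between genotypes either, at log2 fold changes of 0.91 and 0.55 (edgeR adjusted p = 0.234 and 0.403). DESeq2 called 4 of the 10, Tsc22d3, Zbtb16, Errfi1 and Foxo1. Sgk1, Nr1d1, Nfil3 and Cry1 were called by edgeR in the same comparison, at log2 fold changes of 1.94, -1.51, 1.51 and 1.87 (adjusted p between 0.0234 and 0.0468).

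Whether ADR acted differently in the 2 genotypes was asked with the difference between their effects, each taken against its own saline mice. edgeR called none of the 10 genes and 0% of the 19023 tested. At an unadjusted p under 0.05 there were 4 of the 10 and 2288 of all genes, DESeq2 called 3 of the 10 and limma voom 0. The difference was 2.19 on the log2 scale for Tsc22d3 (SE 0.45, edgeR adjusted p = 0.205), 1.14 for Errfi1 (SE 0.28, adjusted p = 0.265) and 0.68 for Foxo1 (SE 0.15, adjusted p = 0.215), the 3 that DESeq2 called. Without TERT WT/WT ADR replicate 3, in which Tsc22d3 was at 46.0 CPM, edgeR called Tsc22d3 (2.74, adjusted p = 0.00777), and without replicate 1 it called Foxo1 (0.77, adjusted p = 0.0209). For Fkbp5 and Zbtb16 the differences were 1.15 (SE 0.54) and 0.84 (SE 0.50). They ranged from 0.54 to 1.66 and from 0.49 to 1.36 when single libraries were left out, lowest in both genes without TERT KO/KO ADR replicate 1 and highest without TERT WT/WT ADR replicate 3, with no call. For Mt1, Mt2 and Ddit4 the differences were smaller than their SE. The comparisons of the ADR experiment share their mice, so that their values for a gene are not separate observations.

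In saline-treated mice, edgeR, DESeq2 and limma voom called 0 of the 10 genes between genotypes, and edgeR called 0.00526% of all genes. Zbtb16 was the 1 gene of the 10 with an unadjusted p under 0.05, at a mean of 3.34 ± 0.645 CPM (SD) over 3 TERT KO/KO mice against 1.89 ± 0.41 CPM over 4 TERT WT/WT mice, without overlap (log2 fold change 0.81, SE 0.34, edgeR adjusted p = 0.566). The other 9 genes overlapped, with log2 fold changes between -0.35 for Tsc22d3 and 0.19 for Mt1. Over all genes tested 8.79% had an unadjusted p under 0.05, close to the 1 of 10 here, and the share without overlap was not counted.

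In i-TERTci kidneys 8 days after doxycycline withdrawal, Mt2 and Ddit4 had the highest folds of the 10 genes, and neither passed the test. edgeR called 0 of the 10 and 0.00564% of 17745 genes. At an unadjusted p under 0.05 there were 2 of the 10, against 22.4% of all genes tested, so that the 10 genes did not stand out. DESeq2 called 1 (Mt2) and limma voom 3 (Mt2 and Ddit4 higher, Zbtb16 lower), and their shares over all genes are not given here. Mt2 was read at 50.5, 108.4, 101.6 and 75.6 CPM in the 4 actin-rtTA+ mice and at 256.2, 109.2 and 153.1 CPM in i-TERTci (log2 fold change 1.06, SE 0.34, edgeR adjusted p = 0.125). Ddit4 was read at 9.14, 10.7, 11.4 and 12.0 CPM in the controls and at 30.1, 9.28 and 23.2 CPM in i-TERTci (log2 fold change 0.97, SE 0.34, edgeR adjusted p = 0.148).

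In both genes i-TERTci replicate 2 was at or near the control range. Its summed tubule injury genes were also at the control level, at 1945 CPM against 1848 to 2082 CPM in controls and 16883 and 12088 CPM in the other 2 i-TERTci mice, although it had 1086 Tert counts. Without it edgeR called Ddit4 (log2 fold change 1.31, adjusted p = 0.000666) and Mt2 (1.30, adjusted p = 0.0153). The share of all genes called without this mouse is not given here. The calls therefore do not show that Ddit4 and Mt2 stood out from other genes. Without i-TERTci replicate 1 the log2 fold changes were 0.59 for Ddit4 (adjusted p = 0.47) and 0.64 for Mt2 (adjusted p = 0.395). Mt1, at 83.0, 159.2, 155.1 and 137.0 CPM in controls and 194.2, 166.1 and 134.8 CPM in i-TERTci, overlapped between groups. Fkbp5 was at 98.3, 38.3, 46.0 and 39.7 CPM in controls and 101.4, 70.5 and 66.2 CPM in i-TERTci, and 1 control mouse thus stood within the i-TERTci range (log2 fold change 0.53, SE 0.34, edgeR adjusted p = 0.398, and from 0.30 without i-TERTci replicate 1 to 0.94 without actin-rtTA+ replicate 1, neither called). Tsc22d3, Zbtb16, Klf9, Errfi1, Foxo1 and Nr3c1 had log2 fold changes between -0.49 and -0.06. Of the 5 pathway lists and the clock list edgeR called no gene in this comparison.

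**Figure D4:**
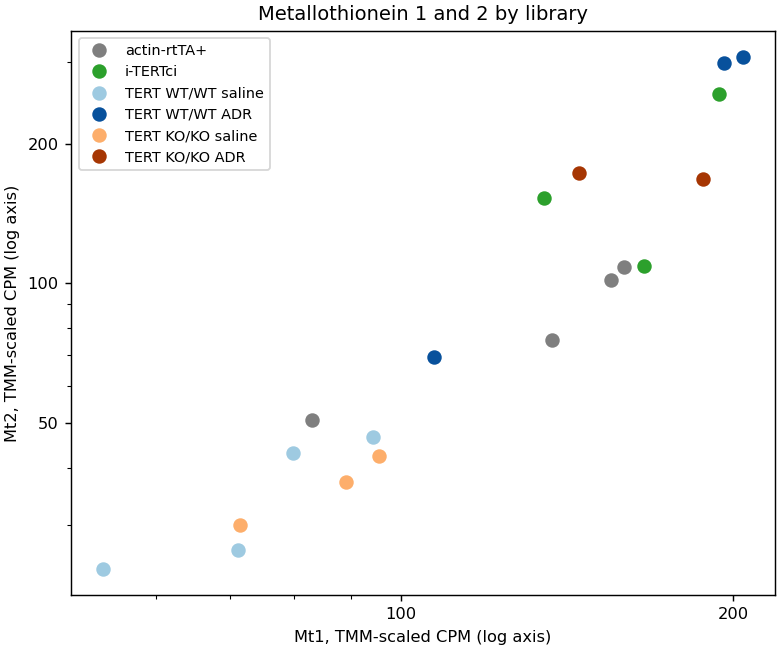
TMM-scaled CPM of Mt1 (x, log axis) and Mt2 (y, log axis), 1 point per library, coloured by group, for the 19 libraries used. Saline mice of both genotypes lie lowest, at Mt2 of 24.1 to 46.6 CPM, and TERT WT/WT ADR replicates 2 and 3 lie highest, at 298.7 and 308.1 CPM.

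The effect of i-TERTci was also set against that of ADR in TERT WT/WT mice in 1 fit over 19 libraries. edgeR called 0 of the 10 genes and 0.00505% of 19783. At an unadjusted p under 0.05 there were 4 of the 10, against 7.16% of all genes tested. DESeq2 called 1 (Zbtb16) and limma voom 4, and their shares over all genes are not given here. The largest difference was that of Zbtb16, whose i-TERTci effect was lower by 2.34 on the log2 scale (log2 difference -2.34, SE 0.63, edgeR adjusted p = 0.418), followed by Mt2 (-1.65, SE 0.58, adjusted p = 0.586).

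The control groups of the 2 experiments differed in level. Zbtb16 lay between 9.31 and 25.4 CPM in actin-rtTA+ mice and between 1.54 and 2.48 CPM in TERT WT/WT saline mice, and Tsc22d3 between 58.2 and 69.6 CPM and between 28.6 and 41.3 CPM. Fkbp5 (38.3 to 98.3 against 17.8 to 29.1 CPM) and Mt2 (50.5 to 108.4 against 24.1 to 46.6 CPM) did not overlap between these groups either. Foxo1 was narrowly apart (70.49 to 97.9 against 65.6 to 70.26 CPM). The groups overlapped in Nr3c1, Klf9, Errfi1, Ddit4 and Mt1, and the share of all genes without overlap was not counted. Of the other lists, of which only these 2 genes are given here, Sgk1 lay between 114.6 and 127.6 CPM against 61.5 to 83.4 CPM. Nr1d1 lay between 168.4 and 174.4 CPM against 216.2 to 238.3 CPM. Strain background, doxycycline and experiment cannot be told apart here, and no test was run.

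Over all 6 groups the mean of Fkbp5 ran from 143 ± 68.8 CPM (SD, n = 2) in TERT KO/KO ADR through 79.4 ± 19.2 (n = 3) in i-TERTci, 75.1 ± 42.0 (n = 3) in TERT WT/WT ADR, 55.6 ± 28.6 (n = 4) in actin-rtTA+ and 23.8 ± 4.68 (n = 4) in TERT WT/WT saline to 20.6 ± 3.89 (n = 3) in TERT KO/KO saline. Neighbours in this order overlapped in their ranges, except actin-rtTA+ and TERT WT/WT saline. Tsc22d3 ran from 101 ± 19.8 CPM in TERT KO/KO ADR through 63.7 ± 5.00 in actin-rtTA+ and 60.6 ± 9.26 in i-TERTci to 26.1 to 33.3 CPM in the other 3 groups, whose ranges overlapped. Per kilobase of exon, the level in TERT WT/WT saline was highest for Errfi1 (79.7 CPM per kb), Mt1 (59.98) and Mt2 (59.6) and lowest for Zbtb16 (0.357).

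Within groups, some of these genes varied together and others did not. Over the deviations of log2 CPM from group means in 19 libraries, Pearson r was above 0 in 29 and below 0 in 16 of the 45 pairs, with a median of 0.201. The highest values were 0.889 for Klf9 with Foxo1, 0.855 for Mt1 with Mt2, 0.788 for Fkbp5 with Zbtb16 and 0.737 for Tsc22d3 with Errfi1. The lowest were -0.819 for Ddit4 with Foxo1 and -0.764 for Nr3c1 with Mt1, and others lay near 0, such as 0.0544 for Fkbp5 with Foxo1 and -0.0824 for Tsc22d3 with Mt2. Among 14370 genes, those most like Fkbp5 were Slc16a5 (0.895), Map3k5 and Frmd4b, those most like Zbtb16 were Casz1 (0.871), Tshr and Plagl1, and those most like Tsc22d3 were Tldc1 (0.846), Ing1 and Myo1c.

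Mt2 was closest to Ercc1 (0.942), Nfkbia (0.918) and Ephb6, Mt1 to Reep2 (0.903), Gm16973 and Itga7, and Ddit4 to Traf5 (0.963), Akt1 and Dusp5. Errfi1 was closest to Rnf6 (0.965), Trak2 and Lrrc58, Nr3c1 to Tm9sf3 (0.936), Siae and Tmem30a, Klf9 to Flt1 (0.914), Eif4g3 and Golgb1, and Foxo1 to Snrk (0.897), Klf9 and A530017D24Rik. Foxo1 was not among the 3 genes closest to Klf9. The points share library, depth and degree of injury, and these values are descriptions.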

How the data were processed

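RNA-seq of 20 whole kidneys was deposited as 1 table of whole-number read counts per gene, not normalized by the authors. Per the labels and the study's methods, reads were checked with FastQC, trimmed with Trimmomatic, aligned to mm10 with STAR and tested with DESeq2. The counting tool, its annotation and its strand setting are not given in the sources used here, so that reads of overlapping opposite-strand genes (beside Fkbp5, Errfi1, Mt2 and Foxo1) cannot be told apart. Of 55471 identifiers, 55144 matched GENCODE M21 without the version and 327 did not.

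Groups came from the sample descriptions. Counts (39323498 to 48399322 per library) were tested with edgeR 4.0.16 in R 4.3.3 (quasi-likelihood test, legacy and robust, TMM factors, filterByExpr, 1 coefficient per group, Benjamini-Hochberg over all genes tested, called at an adjusted p under 0.05) over the 7 libraries of the i-TERTci experiment, the 12 used of the ADR experiment, or all 19. TERT KO/KO ADR replicate 2 entered no fit except the alternative in which it was kept. Each mouse is 1 library, and precision is set by the 2 to 4 mice per group. Tested on simulated data at these sizes, 38% of genes changed 2-fold were recovered in the i-TERTci comparison, 64% in ADR against saline for TERT WT/WT and 60% for TERT KO/KO, and 88%, 98% and 92% of genes changed 4-fold. Simulated counts were drawn gene by gene, so that no simulated mouse stood apart in many genes at once. i-TERTci replicate 2 did so in the injury genes, and these shares do not give the recovery among the real mice. There Krt20 and Lcn2, at log2 fold changes of 5.40 and 5.18 in i-TERTci, were not called (edgeR adjusted p = 0.0758 for both).

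The 10 genes and all lists were chosen with earlier results of these data known. Named were the 10 genes in every library, up to 4 genes per pathway or clock list with the smallest p in the comparison described, and for each of the 10 the 3 genes averaging 1 CPM or more that had the highest Pearson r of log2 CPM (prior count 2) deviations from group means. Cell type lists were summed in CPM. Alternatives were median-ratio size factors, no filter, a minimum mean of 1 CPM, DESeq2 1.42.0, limma 3.58.1 voom with sample quality weights, the newer quasi-likelihood method, replicate blocks, the groups compared alone, both experiments in 1 fit, the left-out library kept, and each library left out. Promoters were read from the RefSeq table of GRCm38.p6, which matched 8 of the 10 genes.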

Additional observations from a re-analysis of the deposited data

Results flagged for a closer look

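Fkbp5 was at 98.3 CPM in actin-rtTA+ replicate 1, a value far from the other 3 control mice (38.3 to 46.0 CPM) by Dixon's test at the 95% level. The same mouse had the highest Tsc22d3, Zbtb16, Klf9, Errfi1, Foxo1 and Nr3c1 and the lowest Ddit4, Mt1 and Mt2 of its group. This test was run in the 2 groups of 4 mice for 10 genes, and chance marks about 1 in 20 such groups.

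For Foxo1, all 3 TERT WT/WT ADR mice lay below their saline mice and both TERT KO/KO ADR mice above theirs. The decrease in TERT WT/WT was called (log2 fold change -0.32, edgeR adjusted p = 0.0272) but not without any of 5 libraries, and the TERT KO/KO value was not called (0.37, edgeR adjusted p = 0.0736). The difference between the effects was 0.68 on the log2 scale (SE 0.15, edgeR adjusted p = 0.215), which did not pass the threshold.

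In the left-out TERT KO/KO ADR mouse, replicate 2, which was not used in the comparisons, 6 of the 10 genes were above all TERT KO/KO saline mice in plain CPM. Fkbp5 was at 144 CPM, Tsc22d3 at 70.7, Zbtb16 at 18.4, Errfi1 at 814, Mt1 at 507 and Mt2 at 479 CPM. The other 4 were below all TERT KO/KO saline mice, with Nr3c1 at 62.3, Klf9 at 71.9, Ddit4 at 4.66 and Foxo1 at 52.1 CPM. Albumin took 26.1% of its counts, and how much of each value came from liver was not tested. The share of all genes outside the saline range in this library was not counted, so that these counts are not a result about the 10 genes.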

How the results depend on the processing

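The 5 increases in TERT WT/WT kidneys after ADR kept their calls under every alternative run except when TERT KO/KO ADR replicate 2 was kept, which left 2 of 8 calls there, 0 of 1 between genotypes after ADR, and 4 of 5 in TERT KO/KO. With the groups compared alone, 5 were called in TERT WT/WT and 0 between genotypes after ADR. The latter count was also 0 with median-ratio size factors, limma voom or the newer quasi-likelihood method, 2 with no filter and 4 with DESeq2. DESeq2 called 3 in the difference of ADR effects, 1 in i-TERTci against actin-rtTA+ and 1 in i-TERTci minus ADR effect, where limma voom called 3 and 4, and both experiments in 1 fit gave 1 for i-TERTci. Over all genes, edgeR called 1001 and DESeq2 2147 in TERT KO/KO, 14 and 127 between genotypes after ADR, 0 and 131 in the difference of ADR effects, and 1 and 21 in saline, where voom called 2243, and voom called 9248 in TERT WT/WT against 5164 by edgeR. Why these counts moved was not tested.

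Over all comparisons, the deviations of mice with the same replicate number had correlations between -0.463 and 0.481. Between genotypes after ADR these were 0.481 for replicate 1 and 0.355 for replicate 3. Whether the numbers pair mice was not tested. With a replicate block, 5 genes were called in TERT WT/WT, 4 in TERT KO/KO and 0 in every other comparison, and 4 log2 values changed sign: Nr3c1 -0.0510 and Mt1 0.0314 between genotypes after ADR, Nr3c1 -0.0230 in the difference of ADR effects and Foxo1 -0.0498 in i-TERTci minus ADR effect.

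Leaving out each library in turn gave 5 to 8 calls in TERT WT/WT, 2 to 7 in TERT KO/KO (2 without TERT KO/KO saline replicate 2 or 3), 0 to 4 between genotypes after ADR (4 without TERT WT/WT ADR replicate 1), 0 to 1 in the difference of ADR effects and 0 to 2 in i-TERTci against actin-rtTA+.

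Signs also changed in values near 0. Between genotypes in saline, Klf9 was -0.000284 with median-ratio size factors, -0.00270 with no filter, -0.00153 with DESeq2 and -0.0548 with voom, where Ddit4 was 0.017 and Foxo1 -0.030. After ADR, Nr3c1 was -0.00465 with a minimum mean of 1 CPM and -0.000674 with the groups compared alone. With voom, Klf9 was 0.044 in i-TERTci minus ADR effect and Nr3c1 0.014 in i-TERTci. With TERT KO/KO ADR replicate 2 kept, Nr3c1 was 0.19 in TERT KO/KO, Ddit4 -0.10, Mt1 1.71 and Mt2 1.23 between genotypes after ADR, and Ddit4 -0.085, Mt1 1.51 and Mt2 1.17 in the difference of ADR effects. Without single libraries, the ranges that crossed 0 were, for Klf9, -0.0837 to 0.50 (ADR in TERT KO/KO), -0.0459 to 0.0575 (saline) and -0.32 to 0.14 (i-TERTci minus ADR effect), for Nr3c1, -0.14 to 0.17 (after ADR), -0.0407 to 0.27 (difference of ADR effects) and -0.13 to 0.0084 (i-TERTci), for Mt1, -0.27 to 0.15 (after ADR), for Mt2, -0.0808 to 0.22 (saline), for Ddit4, -0.11 to 0.0806 (saline), -0.11 to 0.48 (after ADR), -0.085 to 0.50 (difference of ADR effects) and -0.44 to 0.27 (i-TERTci minus ADR effect), for Foxo1, -0.0330 to 0.0415 (saline) and -0.16 to 0.18 (i-TERTci minus ADR effect), and for Tsc22d3, -0.79 to 0.0434 (ADR in TERT WT/WT), -0.0951 to 0.71 (i-TERTci minus ADR effect) and -0.18 to 0.0335 (i-TERTci). Of the log2 values under other alternatives, 590 kept direction and side of the threshold, 27 lost a call and 22 gained one, and without single libraries 768 kept both, 41 lost a call and 13 gained one.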
